A study of Mus musculus with 5 samples.

Results

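Penk and Tac1 are the genes of the peptides that mark the output pathways of the striatum, and their transcripts were read in striatal homogenates from adult mice of the Adcy5 R419W knock-in line (KI, n = 2 libraries, replicates 1 and 3) and from wild-type littermates (WT, n = 3 libraries, replicates 1, 2 and 3). The labels give the genotype and the replicate number of each library. The labels do not say whether KI animals carried the allele on 1 or on both chromosomes, nor their age in weeks or their sex. They also do not say that each library came from its own animal, and the p-values below then describe variation among libraries, part of which may be technical. The 2 genes were chosen by name and position out of 53700 counted gene features.

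Spiny projection neurons are the output neurons of the striatum and fall into an indirect and a direct pathway. Indirect-pathway neurons make proenkephalin from Penk and carry the dopamine receptor Drd2 and the adenosine receptor Adora2a, whereas direct-pathway neurons make the tachykinin precursor from Tac1 and carry the dopamine receptor Drd1. Adcy5 encodes the main adenylyl cyclase of both cell types, the enzyme that turns the signals of these receptors into cAMP. Enkephalins act on opioid receptors and dampen transmitter release, and substance P, from Tac1, excites its targets through tachykinin receptors.

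The letters below show what the counted transcripts encode. They were taken from the GENCODE M21 transcripts of GRCm38 and are written 5′ to 3′ in the sense of the mRNA, with the codons of the peptide in capitals and the 6 bases on each side in lower case. The coding sequence of the transcript Penk-201 holds 6 copies of Met-enkephalin, in 5 different spellings, and 1 copy of Leu-enkephalin. That of Penk-202, the other annotated transcript, holds 3 and 0.
Met-enkephalin, copy 1: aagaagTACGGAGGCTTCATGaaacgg
Met-enkephalin, copy 2: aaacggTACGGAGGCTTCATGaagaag
Met-enkephalin, copy 3: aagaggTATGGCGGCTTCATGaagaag
Met-enkephalin, copy 4: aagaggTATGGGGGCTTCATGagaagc
Met-enkephalin, copy 5: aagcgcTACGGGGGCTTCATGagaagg
Met-enkephalin, copy 6: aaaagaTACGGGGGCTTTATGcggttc
Leu-enkephalin: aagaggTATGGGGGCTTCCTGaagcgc
The copies lie on the minus strand of chromosome 4 between 4133848 and 4134348, all inside the last exon. The codons in front of each are those of a pair of basic residues, where prohormone convertases cut. Behind Met-enkephalin copies 4 and 6 only the first codon is that of a basic residue. The Tac1 coding sequence holds 1 copy each of substance P, on the plus strand of chromosome 6 from 7556732 to 7556764, and of neurokinin A, from 7559101 to 7559130.
Substance P: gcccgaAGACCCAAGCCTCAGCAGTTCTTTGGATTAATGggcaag
Neurokinin A: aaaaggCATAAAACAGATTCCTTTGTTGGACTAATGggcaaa
Of 5 annotated Tac1 transcripts, 3 hold the codons of substance P and 2 also hold those of neurokinin A. The deposited count sums over all of them, so the 2 tachykinins could not be separated.

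Both genes could be read in full. In these files the counts fall where GRCm38 genes lie while the features sit at GRCm39 positions: 33901 of the 53700 features have no GRCm38 exon at their positions and hold 1.06% of the counts. Other genes are therefore named here by the GRCm38 gene at a feature's positions, and are mostly read over a part of their exons. Penk (ENSMUSG00000045573, chromosome 4 from 4133531 to 4138819, minus strand) and Tac1 (ENSMUSG00000061762, chromosome 6 from 7554879 to 7565834, plus strand) have the same position in both builds. Their features cover all 1634 and all 3399 annotated exon bases, in 3 and 9 exon blocks. All peptide codons printed above lie inside them. The Penk feature shares 233 bases with a second feature, that of the long non-coding gene A830012C17Rik, which starts inside Penk on the opposite strand and has its other exon 48610 bases away. Reads were counted without regard to strand and to each feature they overlapped, so reads from A830012C17Rik over those bases are part of the Penk count.

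**Figure D1:**
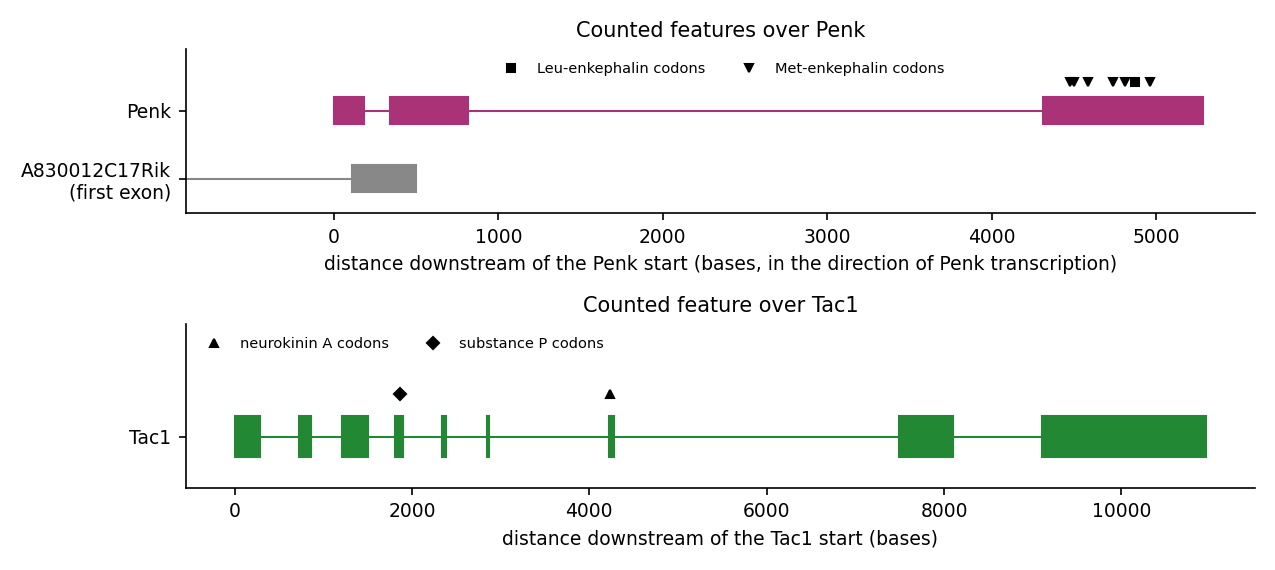
Exon blocks of the counted features over Penk (top) and Tac1 (bottom), as boxes along the distance from each gene's start in bases, with the codons of each peptide marked above. A830012C17Rik overlaps the first 2 exons of Penk over 233 bases and none of the enkephalin codons, which all lie in the last exon; its line runs on to the left beyond the axis.

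Penk stood lower in both KI libraries than in all 3 WT libraries, by a margin that did not pass the adjusted test. The 3 WT libraries held 51178, 61886 and 48052 Penk counts (replicates 1, 2 and 3) and the KI libraries 39084 and 47667 (replicates 1 and 3). Scaled for library size (CPM, counts relative to the TMM-scaled total of the library) this was 6722, 8271 and 7355 CPM in WT and 5296 and 5903 CPM in KI. The highest KI level was below the lowest WT level. The same was true of 11.1% of all tested features and of 31.1% of the 347 with a mean of at least 500 CPM. The mean was 7449 ± 778.9 CPM in WT (SD, n = 3) and 5599 ± 429.0 CPM in KI (SD, n = 2), a level 1.33-fold lower in KI. In edgeR's quasi-likelihood test the log2 fold change was -0.41 (SE 0.09, 95% interval -0.60 to -0.22, unadjusted p = 0.000483), and Penk did not pass the threshold of 0.05 after adjustment over all 13665 tested features (adjusted p = 0.0992). In that test 14 features (0.102%) changed, 6 higher and 8 lower in KI (0.0439% and 0.0585%), or 9 and 7 with unscaled library totals. Penk ranked 66 by p.

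The call on Penk depended on the tool and on 1 library. The DESeq2 Wald test called Penk lower (adjusted p = 0.0066), where it called 1.83% of features and 1.09% lower in KI, and so did limma voom (adjusted p = 0.0282), where it called 0.381% and 0.198%. Without WT replicate 1, which had the lowest Penk level of the WT libraries, the log2 fold change was -0.48 (edgeR adjusted p = 0.000668). In that fit 161 of 13221 features passed, 51 higher and 110 lower in KI, against 14 of 13665 in the main test. Without WT replicate 2 the value of Penk was -0.33 (edgeR adjusted p = 0.542). Over 13 other settings the value was lower in KI in 13 and passed the threshold in 5. Among the 13 is a reading of the second feature over Penk, A830012C17Rik, in place of Penk's own.

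The Tac1 levels of the groups overlapped after TMM scaling. On unscaled library totals both KI libraries (1043 and 1006 CPM) lay above all WT libraries (729.8, 988.9 and 983 CPM). Tac1 counts were 5682, 7536 and 6483 (WT) and 7599 and 7958 (KI). On the TMM-scaled level these were 746.3, 1007 and 992.3 CPM in WT and 1030 and 985.5 CPM in KI. The KI libraries lay at the level of WT replicates 2 and 3, and WT replicate 1 stood below the other 4 libraries. The mean was 915.3 ± 146.5 CPM in WT (SD, n = 3) and 1008 ± 31.3 CPM in KI (SD, n = 2). The edgeR log2 fold change was 0.14 (SE 0.12, unadjusted p = 0.286, adjusted p = 0.988). Its 95% interval of -0.13 to 0.41 runs from a KI level of 0.914 times to one of 1.33 times that of WT, so a modest change in either direction was not detectable with these libraries. Without WT replicate 1 the log2 fold change was 0.02 (edgeR adjusted p = 0.989). Tac1 passed the threshold in 0 of its 12 other settings.

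**Figure D2:**
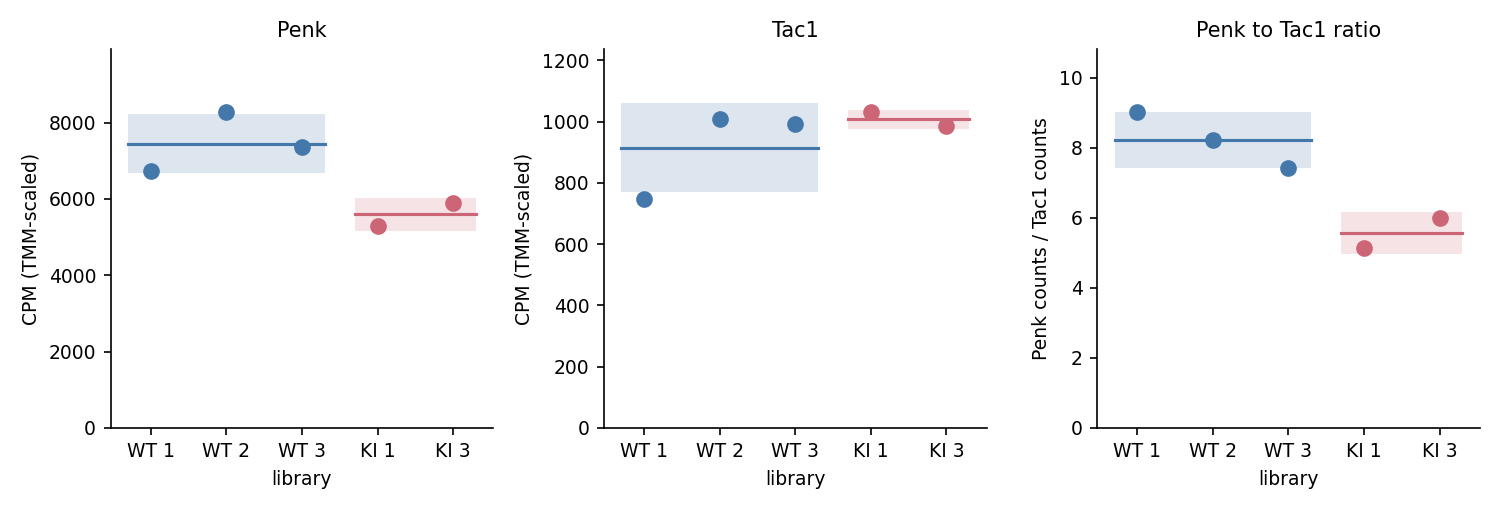
Level of Penk and of Tac1 in CPM and the ratio of their counts, by library. Each point is 1 library, lines are group means and shaded bands are ± 1 SD (WT n = 3, KI n = 2). Penk and the ratio are lower in both KI libraries than in all 3 WT libraries, while the Tac1 levels of the groups overlap on this TMM-scaled level. Of the 347 features with a mean of at least 500 CPM, 31.1% had both KI levels below all WT levels.

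The ratio of both transcripts within a library does not depend on how the libraries are scaled. Penk counts exceeded Tac1 counts 9.01, 8.21 and 7.41 times in WT replicates 1, 2 and 3 and 5.14 and 5.99 times in KI replicates 1 and 3. Every KI value lay below every WT value. The share of other features whose ratio to Tac1 separates the groups was not counted. On unscaled library totals Tac1 was higher in KI (1043 and 1006 CPM) than in WT (at most 988.9 CPM), which lowers any ratio to it. Counting error was small beside these gaps: the exact binomial 95% intervals were 7.22 to 7.61 for the lowest WT ratio and 5.85 to 6.13 for the highest KI ratio, and they cover counting error only. The mean ratio was 8.21 ± 0.80 in WT (SD, n = 3) and 5.57 ± 0.60 in KI (SD, n = 2). The difference of the mean log2 ratios was -0.56, a ratio 1.475-fold lower in KI (exact permutation test, two-sided, p = 0.1). With 5 libraries there are 10 ways to form the groups and 0.1 is the smallest p they can give, so this test cannot pass 0.05. When all features were tested in edgeR with each library scaled to its own Tac1 count, Penk had a log2 fold change of -0.56 (SE 0.22, 95% interval -1.01 to -0.12, unadjusted p = 0.0159) and did not pass over all features (adjusted p = 0.854). On that scale 10 features (0.0732%) passed.

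Leaving out each library in turn moved the ratio difference between -0.67 and -0.45 on the log2 scale, and it stayed negative each time. The most negative value came without KI replicate 3 and the least negative without KI replicate 1. On the TMM-scaled level Tac1 in WT replicate 1 was lower than in both KI libraries. In WT replicates 2 and 3 Tac1 stood at the KI level and Penk was higher.

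Per base of covered exon, Penk stood at 4559 ± 476.7 CPM per kilobase in WT (SD, n = 3) and 3427 ± 262.5 in KI (SD, n = 2), and Tac1 at 269.3 ± 43.1 and 296.4 ± 9.20. Per base the ratio was 17.1 ± 1.66 in WT and 11.6 ± 1.25 in KI. The annotated exons of Tac1 add up to 3399 bases, although its longest coding transcript has 1230, so this scale sets the level of Tac1 low relative to Penk (1634 exon bases, longest transcript 1449). In CPM the Penk feature ranked 2 among all features in each of the 5 libraries, behind the feature over Ckb, a brain creatine kinase. The Tac1 feature ranked between 97 and 205. These ranks compare Penk and Tac1, which are read in full, with genes that are mostly read in part.

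The second feature over Penk gave a smaller difference that was not separated between the groups. The feature labelled A830012C17Rik had counts of 6463, 8580 and 6660 (WT) and of 5114 and 7444 (KI), equal to 12.6% to 15.6% of the Penk counts of the same library. Its level was 848.9, 1147 and 1019 CPM in WT and 693.0 and 921.8 CPM in KI, so KI replicate 3 stood above WT replicate 1. The edgeR log2 fold change was -0.32 (SE 0.14, adjusted p = 0.764). How much of this count comes from Penk and how much from A830012C17Rik cannot be told apart without strand. The ratio of this feature to Tac1 was 1.14, 1.14 and 1.03 in WT and 0.673 and 0.935 in KI, again lower in both KI libraries.

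Among all tested features the Penk difference is read against a background that leans the same way at high expression. Of 13665 tested features, 11.1% had both KI libraries below all 3 WT libraries and 11.3% had both above. Of the 347 features with a mean of at least 500 CPM, 31.1% were separated with KI lower and 6.34% with KI higher. The median log2 fold change was -0.0021 over all features and -0.07 over these 347. Penk lay outside the middle 90% of the 347 features, which ran from -0.36 to 0.19, with 3.46% of them at a lower value. Tac1 lay inside it, with 7.49% of them at a higher value.

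**Figure D3:**
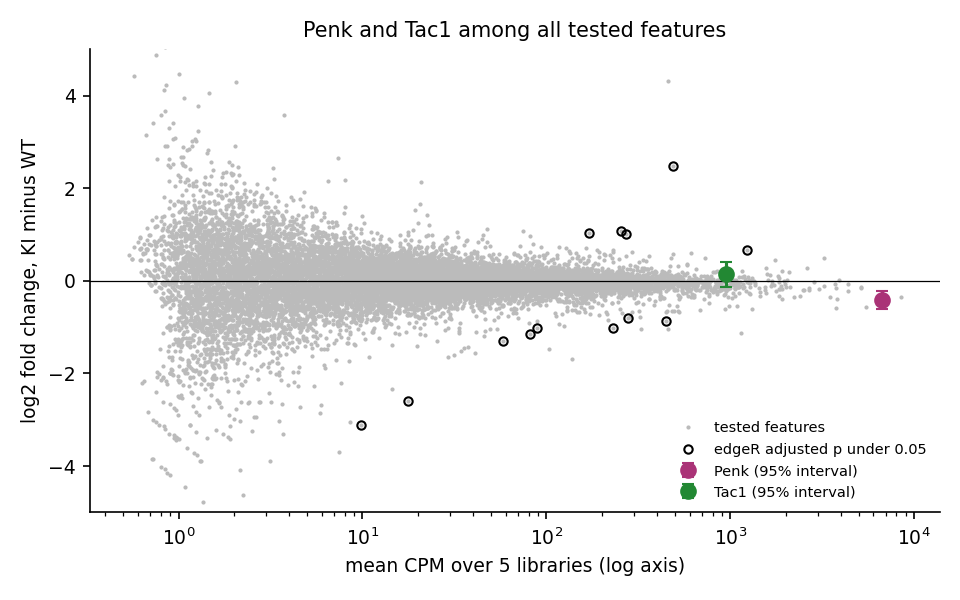
Log2 fold change, KI minus WT, against the mean CPM over 5 libraries (log axis) for the tested features. Open black circles are the 14 features past the edgeR threshold, and Penk and Tac1 are drawn with 95% intervals (32 features beyond ± 5 are not shown). Penk (-0.41) sits at the far right just below the band of highly expressed features and Tac1 (0.14) lies within it.

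The intervals of Penk, with that of the second feature over Penk among them, stayed below 0 in all settings that were fitted across features. Those of Tac1 included 0 in all but 2. Those 2 were the fit with replicate number as a block (0.23, edgeR adjusted p = 0.432) and the fit with the level of Slc17a7 as a covariate (0.39, edgeR adjusted p = 0.9999). Slc17a7 loads glutamate into the synaptic vesicles of cortical neurons. With it as a covariate the log2 fold change of Penk was -0.36 (SE 0.14, edgeR adjusted p = 0.9999) and 2 features passed.

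**Figure D4:**
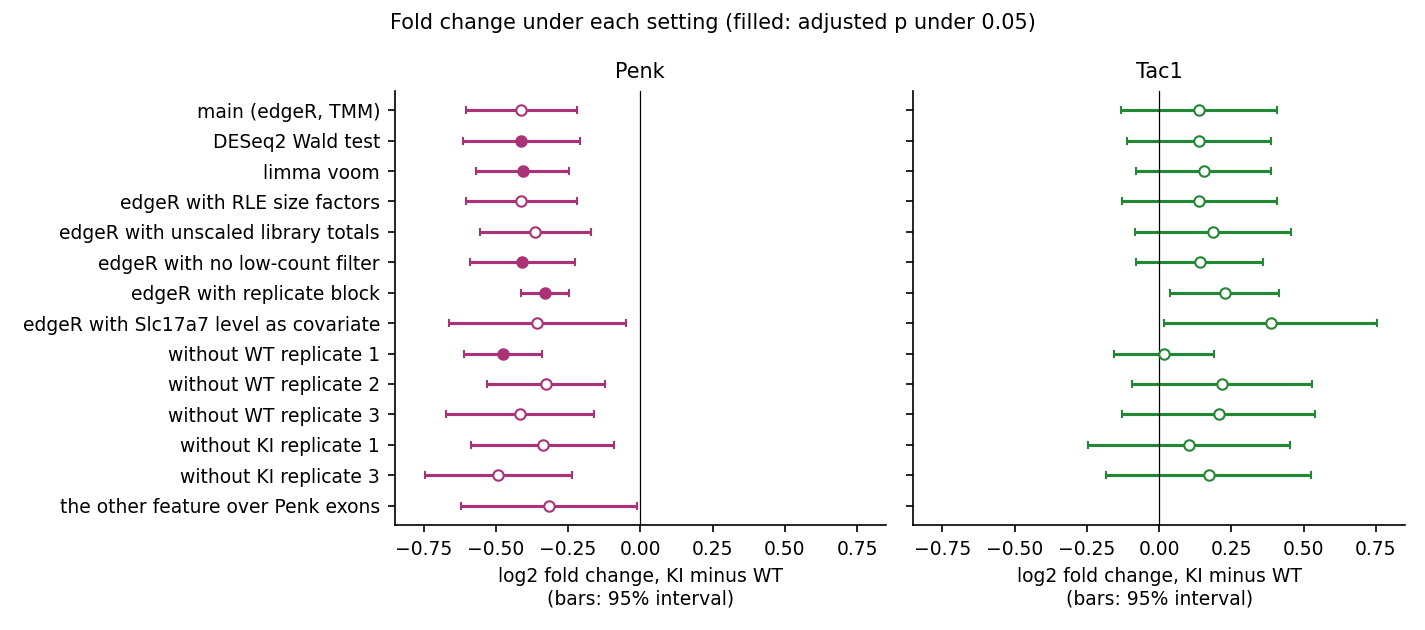
Log2 fold change, KI minus WT, of Penk (left) and Tac1 (right) in the main test and under each alternative; points are estimates, bars are 95% intervals, and filled points have an adjusted p under 0.05. Penk, with the row of the other feature over its exons included, is negative in each row and filled in 5. Tac1 is positive in each row and filled in none.

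Other markers of spiny projection neurons were set beside Penk. Of a list of 14 genes shared by both pathways, 7 have a feature of their own, mostly over a part of their exons, and their summed level was 1729, 2827 and 2563 CPM in WT and 1581 and 1981 CPM in KI. WT replicate 1 fell between the KI libraries. Pde10a, Gng7, Rgs9 and Foxp1 held most of this sum. Gng7 had a mean of 750.1 CPM in WT and 705.2 CPM in KI over 147 exon bases (edgeR log2 fold change -0.09, SE 0.17). The feature of Meis2 was at 0 in 4 of the 5 libraries, and Rarb had a mean of 2.79 CPM in WT and 3.24 CPM in KI. The level of Rgs9, which speeds the switching-off of G proteins in spiny neurons, was 300.9, 506.8 and 419.1 CPM in WT and 177.2 and 223.0 CPM in KI (edgeR log2 fold change -1.03, SE 0.19, adjusted p = 0.0634). Pde10a, the striatal phosphodiesterase that breaks down cAMP and cGMP, had levels of 511.6, 1005 and 864.5 CPM in WT against 463.3 and 561.1 CPM in KI (edgeR adjusted p = 0.476). Of the 6 tested members 4 had a negative and 2 a positive log2 fold change, with a median of -0.19, and none passed the main test. Without WT replicate 1 both Rgs9 (-1.20, edgeR adjusted p = 0.000127) and Pde10a (-0.86, edgeR adjusted p = 0.000321) passed. In that fit 161 of 13221 features passed, 110 of them lower in KI, against 14 in the main test. Rgs9 also passed in the DESeq2 Wald test (adjusted p = 6.69e-06, 1.83% of features called) and limma voom (adjusted p = 0.0228, 0.381% called). With the replicate block Rgs9 passed as well (edgeR adjusted p = 6.74e-05, 154 of 13665 features). Without a low-count filter, where 183 of 24598 features passed, Rgs9 and Pde10a both did (edgeR adjusted p = 1.96e-11 and 6.03e-05). Pde10a had -0.42 without WT replicate 2. In bulk tissue fewer cells of a type and less RNA per cell cannot be told apart.

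Set against this summed level, which was done after the values had been seen, it was Tac1 and not Penk that separated the groups. Penk equalled 3.89, 2.93 and 2.87 times the summed spiny neuron level in WT and 3.35 and 2.98 times in KI. The KI values fell inside the WT range, with a log2 difference of -0.02 (exact permutation test, two-sided, p = 1). Tac1 equalled 0.432, 0.356 and 0.387 times the same sum in WT and 0.651 and 0.498 times in KI. Both KI values lay above all WT values, with a log2 difference of 0.54 (exact permutation test, two-sided, p = 0.1, the smallest p possible here). The share of other features separated on this scale was not counted. The lower ratio of Penk to Tac1 in KI is the same measurement on any of these scales, and which of the pair carries it differs with the scale.

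**Figure D5:**
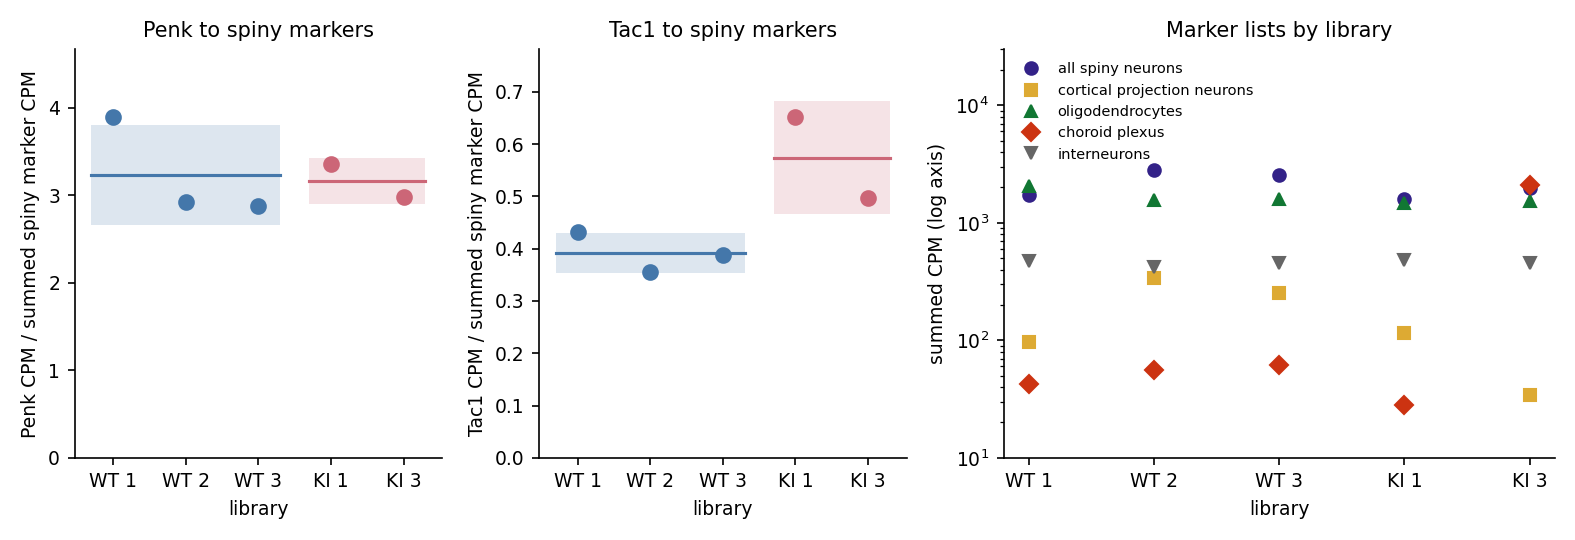
Penk and Tac1 as a multiple of the summed level of 7 spiny neuron markers, by library (left and middle; lines are group means, bands ± 1 SD, WT n = 3, KI n = 2), and the summed CPM of 5 marker lists by library (right, log axis). Pde10a, Gng7, Rgs9 and Foxp1 hold most of the spiny neuron sum. Relative to it the Penk values of the groups overlap, whereas both KI values of Tac1 lie above those of WT.

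Markers of neighbouring tissue also differed between libraries. Of 10 cortical projection neuron markers 3 have a feature of their own, with summed levels of 97.7 to 337.4 CPM in WT and 34.5 to 115.6 CPM in KI, and WT replicate 1 had the lowest WT value. Slc17a7 had levels of 73.6, 286.7 and 210.3 CPM in WT against 96.1 and 22.0 CPM in KI. Neurod2, a transcription factor of cortical neurons, had levels of 1.58, 32.1 and 30.0 CPM in WT against 6.64 and 1.73 CPM in KI. Ttr, which encodes a thyroid hormone carrier made in choroid plexus, stood at 41.8 to 61.8 CPM in WT and at 28.1 and 2093 CPM in KI. Of the 8 choroid plexus markers 3 have a feature of their own with Ttr the most abundant; Kl and Kcne2 were at 0 in 3 of the 5 libraries each and reached 2.72 CPM (Kl) and 0.248 CPM (Kcne2) in KI replicate 3. Without KI replicate 3, which had the high Ttr level, the log2 fold change of Penk was -0.49 (edgeR adjusted p = 0.308). The fit with the Slc17a7 covariate cannot tell the part of cortical tissue in the Penk and Tac1 levels from genotype. Slc17a7 itself had an edgeR log2 fold change of -1.69 (SE 0.54, adjusted p = 0.440), and there are only 5 libraries.

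Few other markers of either pathway could be read. No feature covers Drd2, Adora2a, Gpr6, Gpr52 or Grik3 on the indirect side or Drd1, Pdyn, Chrm4, Isl1 or Slc35d3 on the direct side. Of the 9 listed indirect-pathway genes 3 were tested, all with a negative log2 fold change and none past the threshold. Besides Penk these were Ptprm, a receptor tyrosine phosphatase (-0.25, SE 0.26), and Plxdc1, a plexin domain protein (-0.42, SE 0.36), at no more than 28.2 CPM in any library. The value of Plxdc1 rests on WT replicate 2, without which it was -0.05. Of the 9 direct-pathway genes 2 were tested, Tac1 and the transcription factor gene Ebf1, whose feature covers 45 exon bases (0.10, SE 0.80).

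Of the 7 opioid and tachykinin precursor genes, Penk, Tac1 and Tac4 had features of their own, and 0 of the 3 passed the test. Tac4 was read over 48 exon bases at 0.401 to 2.76 CPM. Among the 7 receptors only Oprm1, the mu opioid receptor gene that enkephalins act on, was tested. It had levels of 13.4, 14.0 and 13.5 CPM in WT against 16.8 and 23.9 CPM in KI over 206 exon bases (edgeR log2 fold change 0.58, SE 0.29, adjusted p = 0.812). Both KI libraries were above WT, as in 11.3% of tested features. Without KI replicate 3 the value of Oprm1 was 0.30. No feature covers the genes of the delta and kappa opioid receptors (Oprd1, Oprk1) or of Tacr1, the receptor of substance P.

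Genes that cut, package and degrade neuropeptides showed no call in the main test. Of 8 tested genes of peptide processing and dense-core granules 3 had a positive and 5 a negative log2 fold change, with a median of -0.06 against -0.0021 over all features, and none passed. Vgf, a granule protein and peptide precursor, had the smallest p of them. Its level was 325.9, 306.5 and 279.0 CPM in WT and 427.4 and 456.3 CPM in KI over 198 exon bases, the reverse of the Penk pattern (edgeR log2 fold change 0.54, SE 0.11, adjusted p = 0.0905). Of all tested features 11.3% had both KI libraries above all WT libraries. Vgf passed without WT replicate 1 (0.60, edgeR adjusted p = 0.00614), where 161 of 13221 features passed. It also passed in the DESeq2 Wald test (adjusted p = 0.000836, 1.83% of features called) and limma voom (adjusted p = 0.034, 0.381% called). The same held without a low-count filter (edgeR adjusted p = 0.00322, 183 of 24598 features) and with the replicate block (edgeR adjusted p = 0.0075, 154 of 13665). Pcsk2, a prohormone convertase that cuts proenkephalin, had levels of 243.8, 251.0 and 202.0 CPM in WT against 207.7 and 192.8 CPM in KI (edgeR adjusted p = 0.893). Of 5 tested peptide-degrading enzymes 2 had a positive and 3 a negative value, with a median of -0.16 and no call. Mme, or neprilysin, which degrades enkephalins and substance P, had levels of 11.95, 33.3 and 24.3 CPM in WT against 10.4 and 16.8 CPM in KI (edgeR log2 fold change -0.76, SE 0.39, adjusted p = 0.833). Its value was -0.40 without WT replicate 2, -0.46 without KI replicate 1 and -1.15 without KI replicate 3. Ece1, an endothelin-converting enzyme, had a log2 fold change of 0.25 (SE 0.14), or 0.16 without KI replicate 3.

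Penk is a known target of the cAMP-responsive factor CREB, and genes of that pathway were read beside it. Of 12 tested CREB and activity-dependent genes 5 had a positive and 7 a negative log2 fold change, with a median of -0.03 and 0 calls. Crem, a cAMP-responsive transcription factor gene, was read over all its exons at 57.1, 50.9 and 69.3 CPM in WT and 98.5 and 132.5 CPM in KI (edgeR log2 fold change 0.97, SE 0.18, adjusted p = 0.0634). Nr4a3, an activity-induced nuclear receptor gene, was also read in full and had levels of 60.0, 52.9 and 57.4 CPM in WT against 65.2 and 125.8 CPM in KI (edgeR adjusted p = 0.361). In both genes the KI libraries lay above all WT libraries, as in 11.3% of tested features, and neither passed the main test. Without a low-count filter, where 183 of 24598 features passed, both did (edgeR adjusted p = 2.46e-06 for Crem and 0.00256 for Nr4a3). Crem also passed in the DESeq2 Wald test (adjusted p = 0.000803, 1.83% of features called) and limma voom (adjusted p = 0.0228, 0.381% called). With the replicate block it passed as well (edgeR adjusted p = 0.00528), with 154 of 13665 features. Crem passed without WT replicate 1 too (0.95, edgeR adjusted p = 0.0143), where 161 of 13221 features passed. Its log2 fold change was 1.16 without KI replicate 1. The difference of Nr4a3 rests on KI replicate 3, the library with the high Ttr level. Its log2 fold change was 0.75 in all 5 libraries, 0.20 without KI replicate 3 and 1.15 without KI replicate 1. Fos, an immediate early gene, had a log2 fold change of -0.0089 (SE 0.25) over the 637 exon bases that were read.

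The genes whose levels followed Penk most closely across libraries were found by the SD, over the 5 libraries, of the log2 ratio of each gene to Penk. Among 1853 protein-coding genes with a mean of at least 50 CPM the median SD was 0.293. The smallest belonged to Myo18a (0.030), an unconventional myosin, followed by Cnst (0.049), Neto2 (0.068), an auxiliary subunit of kainate receptors, Ifnar1 (0.070) and Arhgef2 (0.071). Myo18a had levels of 401.9, 476.9 and 423.2 CPM in WT against 303.9 and 333.7 CPM in KI, so that like Penk it was highest in WT replicate 2 and lowest in KI replicate 1. Nearest to Tac1 were Ssbp3 (0.044), Ski (0.057), Cox19 (0.061), Sppl2b (0.064) and Supt6 (0.067), where the median SD was 0.258. All 5 had their lowest level in WT replicate 1, as Tac1 did. Ski, a transcriptional corepressor, had levels of 298.3, 389.9 and 370.6 CPM in WT against 370.2 and 375.5 CPM in KI. Shared highs and lows follow from how these genes were chosen. With 5 libraries such likeness is a description and was not tested.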

How the data were processed

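The 5 striatal libraries were made with a stranded Illumina mRNA kit, per the labels' protocols. The authors deposited unnormalized counts of read pairs, 1 value for each gene feature and library, and obtained them with featureCounts 2.0.1 and the GRCm39 annotation of Ensembl release 103, per the file headers. A pair was counted for each feature it overlapped, and strand was ignored. Which aligner and which genome build produced the alignments is not given in the sources used here. Library totals were 6595105 to 7910584 counts, and a value of 0 allows up to 0.379 to 0.455 CPM (3 counts, counting error only). All pairs of libraries differed by more than sampling noise (chi-square of 6.39 to 19.9 for each degree of freedom).

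The exons of GENCODE M21 (GRCm38) were intersected by position with the features in bedtools 2.31.1, and 16422 were named by the gene alone there or by the only protein-coding one; a gene in a list is read by the feature with the largest overlap. No coordinate was converted. The main test was edgeR's quasi-likelihood F-test (edgeR 4.0.16, R 4.3.3) after filterByExpr and TMM scaling (factors 0.981 to 1.03). Its p-values were adjusted over all tested features by Benjamini-Hochberg, with a threshold of 0.05. Alternatives used DESeq2 1.42.0, limma 3.58.1 (voom), other scaling, no filter, a replicate block, a Slc17a7 covariate and leaving out each library. The Penk to Tac1 ratio was tested by exact permutation. Peptide codons were located with Biopython 1.88.

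The members, gene lists and naming rule were chosen with earlier results of these data known. From each list the text names its members with a call or, where there is none, the 2 of smallest p, and it also names Penk, Tac1, Drd1, Drd2, Adora2a, Pdyn, Slc17a7, Neurod2, Ttr and the 5 genes nearest in pattern to each member (mean of at least 50 CPM). Other genes were named after their values were seen. For lists not described in the report, median log2 fold changes were 0.08 for interneurons, -0.19 for astrocytes, -0.17 for oligodendrocytes, -0.49 for microglia and -0.44 for endothelium, with 0 calls, and no other neuropeptide of the list was tested. The cortical list had a median of -1.69 over 3 tested members and the choroid plexus list 4.32 for Ttr alone.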

Additional observations from a re-analysis of the deposited data

How the results depend on the processing

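Relative to 14 features that changed in the main edgeR test, the DESeq2 Wald test gave 123, limma voom 52, no low-count filter 183, the replicate block 154 and the Slc17a7 covariate 2, and leaving out 1 library gave 2 (without WT replicate 3) to 161 (without WT replicate 1). The cause was not tested, although 24598 features were tested without a filter and 6710 in DESeq2. Penk, at -0.41 in the main test, came to pass with the DESeq2 Wald test (-0.41), limma voom (-0.41), no low-count filter (-0.41, edgeR adjusted p = 0.00256) and the replicate block (-0.33, edgeR adjusted p = 5.94e-05). Without 1 library it ranged from -0.49 to -0.33 and passed without WT replicate 1. With the replicate block the ratio difference was -0.56 and Tac1 did not pass. Only replicate numbers 1 and 3 are shared, no label says that a number marks a pair, and deviations from the group means correlated at 0.12 and 0.08 for the same numbers, so the block is no evidence of pairing; WT replicate 2 adds nothing to it. When 1 KI library is left out, the other is assumed to vary like WT. No other feature covers Tac1, so that alternative could not be run. For 24 other named genes, 245 values under the alternatives had the same direction and call, 27 newly passed and 0 lost a call, while 9 changed sign, 0 of them past the threshold. Leaving out 1 library, Ebf1 ranged from -0.68 to 1.02, Ttr from -0.92 (without KI replicate 3) to 5.30 and Aldh1l1 from -0.51 to 0.0757. The sign also changed, with the Slc17a7 covariate, for Gad1 (-1.37e-06), Neurod2 (0.77), Ttr (-0.51) and Slc1a3 (0.12). These counts leave out 6 genes to which DESeq2 gave no adjusted p and Slc17a7 with its own level as the covariate. Penk and Tac1 have at least 5682 counts in each library.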
